A study of Homo sapiens with 16 samples.

Results

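The endoplasmic reticulum (ER) folding and secretory genes are 37 genes of the unfolded protein response and of the machinery that plasma cells use to make and secrete protein. They were taken from the 57500 genes of each count table by matching symbols to the Ensembl identifiers, and 37 of 37 were found. RNA was sequenced in bulk from NCI-H929, an established line from a human multiple myeloma, a cancer of antibody-secreting plasma cells. The 16 libraries form 4 groups of 4. DMSO is the vehicle control of the degrader group, which received p300 degrader 27, a compound labelled as acting against the acetyltransferase p300 (gene EP300), at 3 nM for 6 h. NTC, an abbreviation that the labels leave unexplained, is the control of the p300 KO (knockout) group. The labels say neither how the knockout was made, nor whether it is 1 clone, nor whether replicates were separate cultures, so the p-values cover the spread between the libraries sequenced, part or all of which could be technical.

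As background, proteins bound for secretion enter the ER through the SEC61 channel, lose their signal peptide there, and are folded by chaperones and disulfide isomerases. Chains that fail to fold are returned to the cytosol and destroyed, a route called ER-associated degradation. When unfolded chains build up, the membrane sensors IRE1 (gene ERN1), ATF6 and PERK (gene EIF2AK3) switch on the unfolded protein response, in which IRE1 splices the RNA of XBP1 into the form that encodes an active transcription factor. XBP1 is needed for the secretory capacity of plasma cells, and p300 is a coactivator that acetylates histones at enhancers and promoters.

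Several of the 37 promoters carry the sequence elements through which the unfolded protein response is known to act, and these are shown because the genes that hold them are followed below. The RefSeq promoter windows of GRCh38.p14, from 250 bases before to 50 bases after a gene's start, were searched on both strands for 3 motifs, and 33 of the 37 genes had a window. The ER stress response element (ERSE, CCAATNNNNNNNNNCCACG) was found in 6 of the 33 genes (18.2%) and in 25 of all 27305 genes with a window (0.0916%). ERSE-II, which is ATTGG, 1 base of any kind, then CCACG, was found in 3 of the 33 (9.09%) and in 19 of all genes (0.0696%). The core of the XBP1-binding UPRE (TGACGTGG) was found in HYOU1, SSR3 and SSR4, 3 of the 33 (9.09%), and in 253 of all genes (0.927%); in HYOU1 it overlaps an ERSE-II. At least 1 motif was present in 11 of the 33 genes (33.3%) and in 295 of all genes (1.08%). A match is a description of the letters and no proof of a bound site. Below, each ERSE and ERSE-II match is given 5′ to 3′ on the strand of its gene with the fixed letters of the motif in capitals, and motifs on the opposite strand therefore read as their reverse complement.
HSPA5, chr9:125241386-125241414, minus strand: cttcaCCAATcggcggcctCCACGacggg
HSP90B1, chr12:103930211-103930239, plus strand: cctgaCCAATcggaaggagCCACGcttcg
HSP90B1, chr12:103930316-103930344, plus strand: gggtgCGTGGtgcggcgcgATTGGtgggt
CALR, chr19:12938379-12938407, plus strand: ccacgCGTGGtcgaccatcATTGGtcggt
CANX, chr5:179698773-179698801, plus strand: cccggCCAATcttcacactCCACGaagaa
CRELD2, chr22:49918549-49918577, plus strand: cctctCGTGGcgaactcggATTGGgccat
PDIA6, chr2:10812848-10812876, minus strand: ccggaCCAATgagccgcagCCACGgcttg
HYOU1 (ERSE-II), chr11:119057269-119057289, minus strand: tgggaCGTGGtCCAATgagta
HYOU1 (ERSE-II), chr11:119057375-119057395, minus strand: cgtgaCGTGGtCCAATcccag
SDF2L1 (ERSE-II), chr22:21642109-21642129, plus strand: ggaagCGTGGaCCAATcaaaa
HERPUD1 (ERSE-II), chr16:56932020-56932040, plus strand: cgccgATTGGgCCACGttggg
The first 7 are the ERSE matches, with 2 in HSP90B1, and the last 4 the ERSE-II matches, with 2 in HYOU1, of which the second is the one that the UPRE core overlaps.

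Libraries held 12.6 to 23.1 M counts (M, mega), and 3 counts, the most that a count of 0 allows, equal 0.130 to 0.238 counts per M counts (CPM) depending on the library. All 8 plasma cell markers were present in every library, with JCHAIN, which links antibody units, at 2527 to 12026 CPM. Markers of T, NK, myeloid, erythroid, fibroblast and epithelial cells were low, the highest being CD3E at 4.77 to 43.9 CPM. Marker values are CPM of all counts, mitochondrial ones included, unlike the scaled CPM of the genes below. They are therefore lowered most in degrader 2 and p300 KO 1, with 64.9% and 47.7% mitochondrial counts. Some of the low markers, summed per cell type, differed between the groups. The 5 T cell markers summed to 38.0 to 45.1 CPM in DMSO against 5.80 to 28.8 CPM with the degrader, and to 47.3 to 53.4 CPM in NTC against 21.4 to 39.5 CPM in KO, while CD3D and CD3G were at 0 in 11 and 9 of the 16 libraries. The 3 NK cell markers summed to 3.78 to 4.21 CPM in DMSO, 1.19 to 2.84 CPM with the degrader, 33.8 to 36.7 CPM in NTC and 20.9 to 24.8 CPM in KO. The 3 monocyte markers summed to 1.15 to 1.46, 0.40 to 0.90, 7.10 to 11.3 and 3.20 to 4.84 CPM in the same order, and 5 markers of earlier B cells to 25.8 to 30.1 CPM in NTC and 16.1 to 19.1 CPM in KO. The part of these markers in the results on the 37 genes was not tested.

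EP300 itself ran from 91.0 to 99.97 CPM in NTC and from 34.0 to 50.2 CPM in p300 KO, a log2 fold change of -1.25 ± 0.11 (SE, edgeR adjusted p = 2.20e-04), with no overlap between the groups. With the degrader, which acts on the protein, EP300 RNA checks no label; it ran from 35.8 to 45.3 CPM in DMSO and from 48.1 to 49.9 CPM in 3 degrader libraries, and was 141 CPM in degrader 2.

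Degrader 2 and p300 KO 1 stood apart before any comparison of groups. Mitochondrially encoded genes took 64.9% of the counts of degrader 2 and 47.7% of those of p300 KO 1, against 5.99% to 23.5% in the other 14 libraries. The ER folding and secretory genes were low in both libraries beyond this loss of depth. They took 1.14% of the counts outside the mitochondrial genome in degrader 2 and 1.84% to 1.92% in the other 3 degrader libraries, and 1.15% in p300 KO 1 against 1.43% to 1.47% in the other 3 KO libraries. Degrader 2 was the lowest library of its group for 31 of the 37 genes (83.8%), where the same held for 43.4% of all genes tested, and p300 KO 1 for 27 of the 37 (73.0%), against 40.2% of all genes. In bulk RNA, fewer cells of a type and less RNA per cell cannot be told apart. The counts of genes called are therefore given below with and without these 2 libraries, while many changes of single genes are given only without them. No gene of the 37 whose change in a comparison is given only without them was called in that comparison with all libraries.

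**Figure D1:**
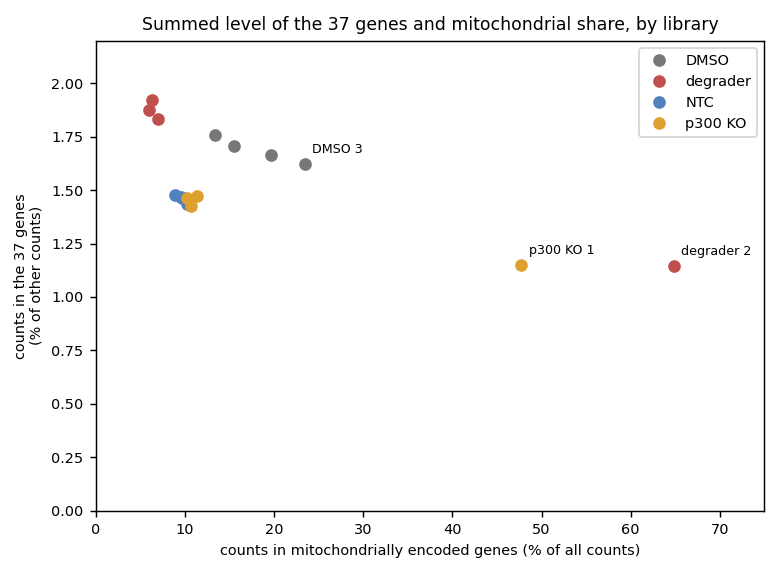
Each point is 1 of the 16 libraries, with the share of all counts in mitochondrially encoded genes (x axis, %) against the share of the other counts in the 37 genes (y axis, %), coloured by group. Degrader 2 and p300 KO 1 lie far to the right at 1.14% and 1.15%, below the other libraries of their groups, and the DMSO libraries lie to the right of the other 3 degrader libraries.

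The genes lowest in one of these libraries tended to be low in the other. Relative to the mean of the other 3 libraries of its group, MANF, a secreted ER stress factor, was -2.42 (log2) in degrader 2 and -0.85 in p300 KO 1. PDIA6, a disulfide isomerase, was at -2.30 and -1.26, SPCS1, a signal peptidase subunit, at -2.21 and -0.76, and HSPA5, the main ER chaperone (BiP), at -2.10 and -0.67. Across the 37 genes these deviations correlated with Pearson r = 0.84 and Spearman rho = 0.83 (n = 37 genes, which are not independent, and both libraries share a high mitochondrial share), with the same sign in 32. PPP1R15A, the phosphatase subunit that ends the translation block of the stress response, was higher in both (0.50 and 0.73). HSP90B1, DNAJC3 and SEC24D were higher in both as well. ERN1 was close to its group in degrader 2 (-0.06) and lower in p300 KO 1 (-0.20). The median over the 37 genes was -0.82 in degrader 2 and -0.32 in p300 KO 1, against 0.02 in each over all genes tested.

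**Figure D2:**
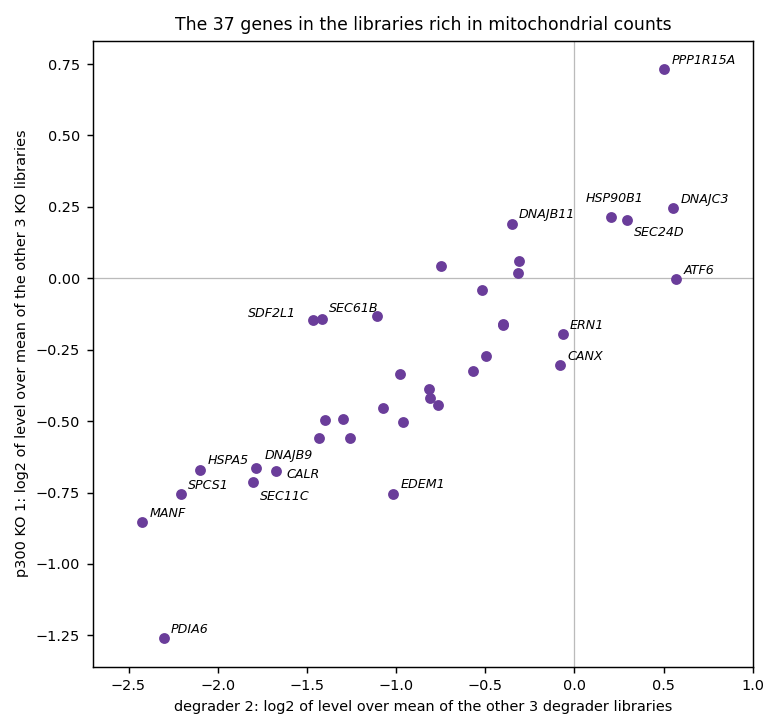
Each point is 1 of the 37 genes, with its level in degrader 2 (x axis) and in p300 KO 1 (y axis) as log2 of the level over the mean of the other 3 libraries of the group, after adding 0.5 CPM. Most points lie below 0 on both axes, with MANF, PDIA6, SPCS1 and HSPA5 lowest and PPP1R15A, DNAJC3, HSP90B1 and SEC24D above 0 on both.

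The same direction was seen more weakly in DMSO 3, the DMSO library with the highest mitochondrial share (23.5%). It was the lowest of its group for 22 of the 37 genes (59.5%), against 30.7% of all genes tested, with PDIA6 at -1.13 and MANF at -0.95 relative to the other 3. DMSO libraries had 13.4% to 23.5% mitochondrial counts and the other 3 degrader libraries 5.99% to 6.96%. The mitochondrial share therefore does not overlap between DMSO and those 3 libraries, and its part in the degrader results cannot be told apart from the treatment.

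Degrader and DMSO were compared to ask what 6 h with the degrader did to these genes. With all 8 libraries, ERN1 fell and no other gene of the 37 passed the test (edgeR quasi-likelihood test, Benjamini-Hochberg adjusted p under 0.05 over all genes), against 1.64% of all 15872 genes tested called higher and 3.12% called lower. Of the 37, 7 had an unadjusted p under 0.05, against 3289 of all 15872 genes. DESeq2 called 4 higher and 2 lower, against 793 and 1003 of all 15872 genes. With library quality weights, limma-voom called 19 higher and 5 lower, against 3721 and 3895 of all 15872 genes. Without degrader 2, 17 of the 37 genes rose (45.9%) and 3 fell (8.11%), against 18.2% higher and 20.3% lower among all 16297 genes tested. The median log2 fold change was 0.21 over the 37 genes and -0.04 over all genes.

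Of the 17 genes that rose without degrader 2, 11 were chaperones or isomerases, and the 3 that fell were ERN1 and 2 genes of ER-associated degradation. Of 11 chaperones and co-chaperones 8 rose and 0 fell (10 had an unadjusted p under 0.05, against 7875 of all 16297 genes). They were HSPA5, HSP90B1, HYOU1, DNAJB11, SDF2L1, CALR, MANF and CRELD2. Of 6 isomerases and B cell folding factors, PDIA4, PDIA6 and P4HB rose. Of 10 genes for entry into the ER, SPCS2, SEC11C, SEC61A1 and SSR1 rose. Of 5 genes of ER-associated degradation, HERPUD1 and SYVN1 fell and SEL1L rose, and of 3 sensor and feedback genes ERN1 fell and ATF6 rose. SEC24D, a coat protein of vesicles that leave the ER, and TENT5C, a poly(A) polymerase mutated in myeloma, were at -0.08 and -0.19 and did not pass.

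These calls without degrader 2 moved with the libraries left out and with the mitochondrial share as a covariate, as follows. Leaving out DMSO 3 as well, 19 of the 37 rose and 5 fell (19.6% and 21.1% of all genes). With the log2 mitochondrial share as a covariate and all 8 libraries, 7 of the 37 were called higher and 19 lower (18.4% and 18.1% of all genes). With that covariate and without degrader 2, 0 were called higher and 3 lower, PDIA6, ERN1 and HYOU1 (1.00% and 2.24% of all genes). In that fit 9 of the 37 had an unadjusted p under 0.05, for which those adjusted shares are no background. ERN1 was called lower in each of these 5 fits, and it was the only one of the 37 that was called in all of them. The direction of HSPA5, CALR, CRELD2 and SEC11C was opposite with the covariate and all 8 libraries (-0.57, -0.38, -0.21 and -0.42, each called lower).

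Scaling moved the split of the 37 and of all genes as well. Without degrader 2, total count scaling gave 19 higher and 2 lower, against 4215 and 2468 of all 16297 genes. Its medians were 0.31 over the 37 and 0.08 over all genes. Removing mitochondrial genes and scaling by the remaining total gave 12 higher and 5 lower, against 2168 and 4085 of all 16462 genes. The medians were then 0.13 and -0.12. RLE scaling and DESeq2 each gave 18 higher and 3 lower. Of all 16297 genes, RLE called 3185 higher and 3147 lower, and DESeq2 3034 and 2949.

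**Figure D3:**
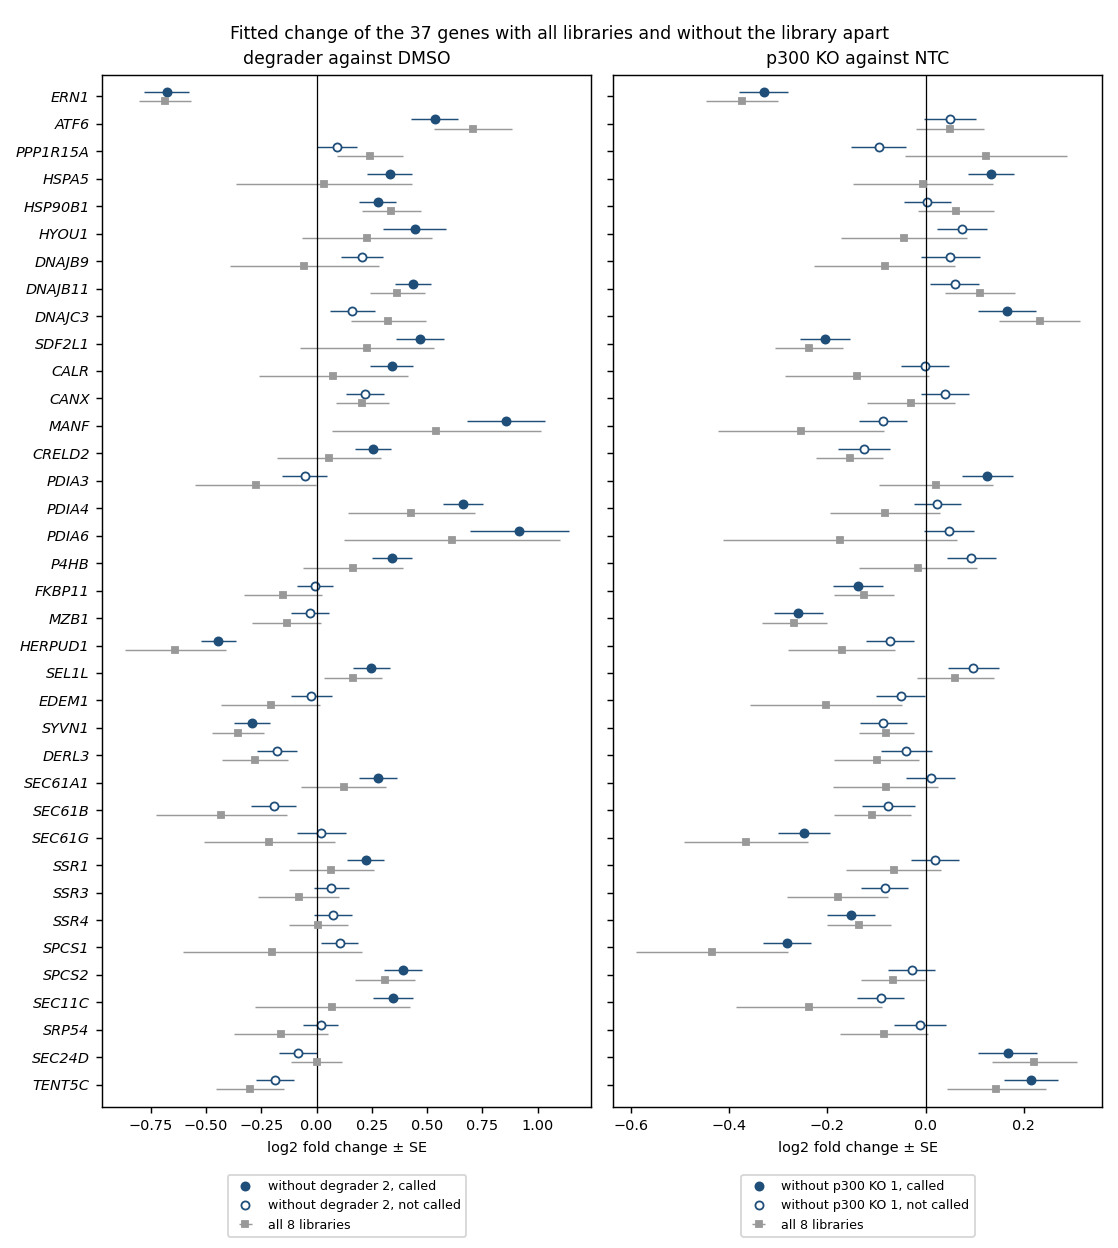
Fitted log2 fold change ± SE (x axis) of each of the 37 genes (y axis, ordered by role) for degrader against DMSO on the left and p300 KO against NTC on the right, with all 8 libraries (grey squares) and without the library that stands apart (blue circles, filled where called at an adjusted p under 0.05). Errors shrink without that library, most of the left panel moves above 0 while ERN1, HERPUD1 and SYVN1 stay below, and changes in the right panel are smaller (the 2 x axes differ).

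ERN1 (chr17:64039142-64130819, GRCh38), which encodes the sensor IRE1, was at 91.1, 90.1, 73.0 and 87.0 CPM in DMSO 1 to 4 and at 57.1, 51.3, 55.3 and 48.6 CPM in degrader 1 to 4. Every degrader library, degrader 2 included, lay below every DMSO library. The log2 fold change was -0.68 ± 0.12 (SE, adjusted p = 0.0156) with all 8 libraries and -0.68 ± 0.10 (adjusted p = 1.94e-04) without degrader 2. Leaving out 1 library at a time, the value ran from -0.75 to -0.63; it was called without DMSO 3 and without degrader 2 and missed the threshold in the other 6, with an adjusted p of up to 0.0772. ATF6 (chr1:161766294-161964070), the sensor that is cut in the Golgi to free a transcription factor, was at 49.3, 53.6, 38.3 and 51.2 CPM in DMSO and at 71.9, 104.4, 70.3 and 68.2 CPM with the degrader. Here degrader 2 was the highest library, and the groups did not overlap. The change was 0.71 ± 0.17 (adjusted p = 0.0566) with all libraries and 0.53 ± 0.11 (adjusted p = 0.00165) without degrader 2. It was 0.77 with the covariate and all libraries (adjusted p = 9.64e-06), and -0.25 with the covariate and without degrader 2 (adjusted p = 0.626). PPP1R15A was at 0.09 ± 0.09 without degrader 2 and did not pass.

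HSPA5 (chr9:125234853-125241330) was at 748, 890, 674 and 800 CPM in DMSO and at 982, 230, 1027 and 944 CPM with the degrader. The 3 other degrader libraries lay above every DMSO library, and degrader 2 lay far below them. The log2 fold change was 0.03 ± 0.40 (adjusted p = 0.982) with all libraries and 0.33 ± 0.10 (adjusted p = 0.0195) without degrader 2. MANF (chr3:51385047-51389397) was at 154, 178, 84.9 and 160 CPM in DMSO and at 264, 48.7, 271 and 255 CPM with the degrader, a change of 0.54 ± 0.47 (adjusted p = 0.561) with all libraries and 0.86 ± 0.18 (adjusted p = 0.00194) without degrader 2. DMSO 3 was the low DMSO library and degrader 2 the low degrader library. Leaving out both, MANF was at 0.66 (adjusted p = 1.33e-06). SDF2L1, a partner of HSPA5 and its DnaJ helpers, was at 227, 221, 164 and 206 CPM in DMSO and at 288, 103, 295 and 273 CPM with the degrader. DNAJB11, such a helper, was at 142, 156, 151 and 148 CPM in DMSO and at 202, 159, 212 and 195 CPM with the degrader. Its groups did not overlap even with degrader 2. The changes without degrader 2 were 0.47 ± 0.11 (adjusted p = 0.00408) for SDF2L1 and 0.44 ± 0.08 (adjusted p = 8.82e-04) for DNAJB11. The other chaperones that rose did so by 0.25 (CRELD2) to 0.44 (HYOU1, an HSP70 relative that releases nucleotide from HSPA5). CANX, DNAJB9 and DNAJC3 were at 0.22, 0.21 and 0.16 and did not pass.

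PDIA4 (chr7:149003062-149028641), a disulfide isomerase, had the smallest p of the 37 without degrader 2. It was at 316, 373, 310 and 342 CPM in DMSO and at 535, 202, 561 and 507 CPM with the degrader. Without degrader 2 the groups did not overlap and the change was 0.66 ± 0.09 (adjusted p = 1.01e-04), where all libraries gave 0.43 ± 0.29 (adjusted p = 0.443). PDIA6 (chr2:10783391-10837977) spread widely within DMSO, at 103, 164, 59.9 and 128 CPM, and was at 236, 43.5, 231 and 184 CPM with the degrader. Its change was 0.92 ± 0.23 (adjusted p = 0.00569) without degrader 2, 0.70 (adjusted p = 2.10e-04) without DMSO 3 as well, and -1.45 (adjusted p = 0.00315) with the covariate and without degrader 2. P4HB, the isomerase that is also the beta subunit of prolyl hydroxylase, was at 1198, 1372, 1178 and 1226 CPM in DMSO and at 1586, 813, 1662 and 1509 CPM with the degrader. Its change without degrader 2 was 0.34 ± 0.09 (adjusted p = 0.00918). PDIA3 (-0.05), FKBP11 (-0.01), a proline isomerase of secretory cells, and MZB1 (-0.03), a cofactor for antibody folding in B cells, did not pass.

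HERPUD1 (chr16:56932048-56944863), a membrane scaffold of the degradation complex, was at 255, 254, 263 and 266 CPM in DMSO and at 198, 90.8, 194 and 183 CPM with the degrader. The groups did not overlap, with degrader 2 the lowest. The change was -0.64 ± 0.23 (adjusted p = 0.158) with all libraries and -0.44 ± 0.08 (adjusted p = 7.54e-04) without degrader 2. It was -0.90 with the covariate and all libraries (adjusted p = 5.79e-08) and -0.49 with the covariate and without degrader 2 (adjusted p = 0.171). SYVN1, the ubiquitin ligase HRD1 of the same complex, was at 157, 148, 155 and 151 CPM in DMSO and at 126, 101, 132 and 118 CPM with the degrader. SYVN1 changed by -0.29 ± 0.08 (adjusted p = 0.0114) without degrader 2, and again the groups did not overlap. SEL1L, the partner of SYVN1, went the other way, at 0.25 ± 0.08 (adjusted p = 0.0311). EDEM1 and DERL3, which deliver clients to that complex, were at -0.02 and -0.18 and did not pass.

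**Figure D4:**
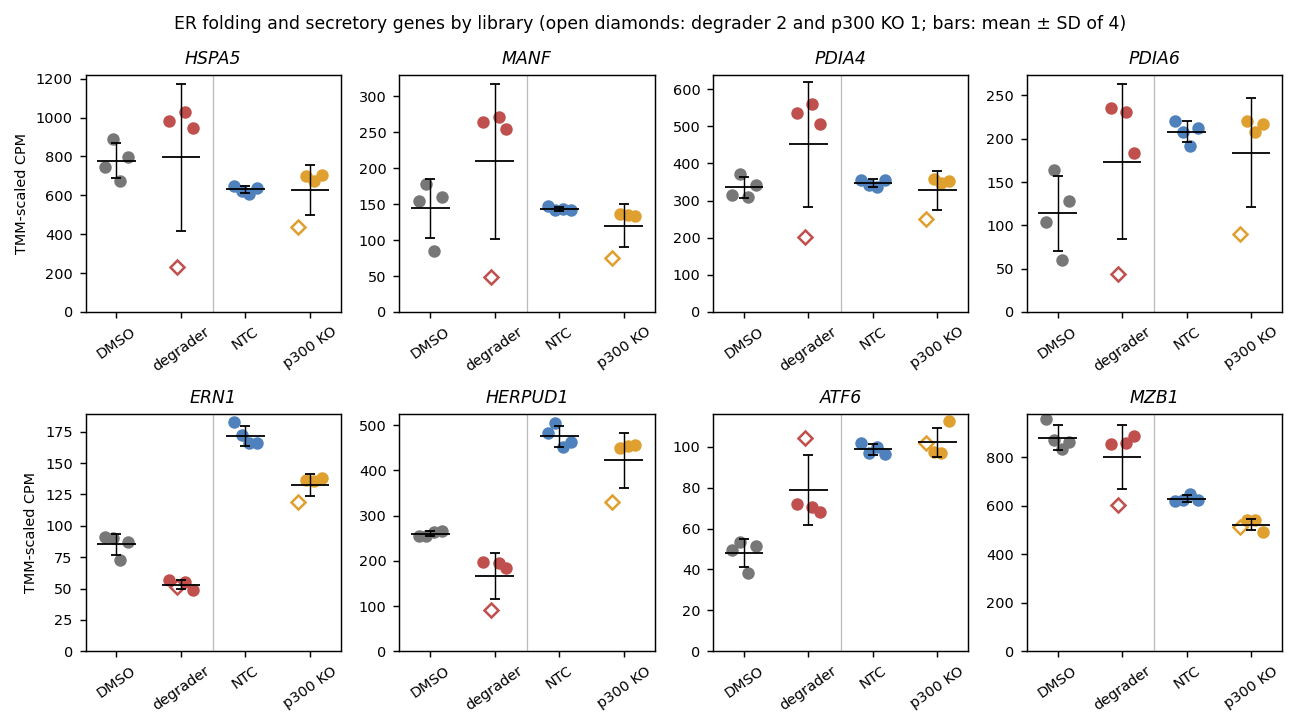
TMM-scaled CPM (y axis, from 0) of 8 of the 37 genes in each library of the 4 groups, scaled separately for the degrader and knockout experiments, with the mean and SD of 4 libraries as bars. Open diamonds mark degrader 2 and p300 KO 1, which are low for HSPA5, MANF, PDIA4, PDIA6 and HERPUD1, while ERN1 is lower in all 4 degrader libraries than in DMSO and in all 4 KO libraries than in NTC.

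SPCS2, a subunit of the signal peptidase complex, was at 217, 237, 212 and 231 CPM in DMSO and at 310, 223, 301 and 275 CPM with the degrader. Its change without degrader 2 was 0.39 ± 0.09 (adjusted p = 0.00282). SEC11C, a catalytic subunit of the same complex, was at 653, 670, 578 and 674 CPM in DMSO and at 832, 235, 806 and 832 CPM with the degrader, with a change of 0.35 ± 0.09 (adjusted p = 0.00721) without degrader 2. For both genes the 3 other degrader libraries lay above DMSO and degrader 2 did not. SPCS1, of the same complex, was at 0.11 ± 0.08 and did not pass. SEC61A1, the pore of the channel, rose by 0.28 and SSR1, a subunit of the translocon-associated TRAP complex, by 0.22. SEC61B, SEC61G, SSR3, SSR4 and SRP54 lay between -0.19 and 0.07 and did not pass.

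Of the 9 genes with an ERSE or ERSE-II in the window, 0 were called higher and 0 lower with all 8 libraries, against 1.64% and 3.12% of all genes. Without degrader 2, 7 of the 9 were called higher and 1 lower, where 18.2% of all genes were called higher and 20.3% lower. The 7 were HSPA5, HSP90B1, CALR, CRELD2, PDIA6, HYOU1 and SDF2L1, the gene called lower was HERPUD1, and CANX did not pass. Leaving out DMSO 3 as well, 8 of the 9 were called higher and 1 lower, against 19.6% and 21.1% of all genes. With the covariate and all 8 libraries, 2 of the 9 were called higher (HSP90B1 and CANX) and 4 lower (HERPUD1, HSPA5, CALR and CRELD2), against 18.4% and 18.1% of all genes. With the covariate and without degrader 2, PDIA6 (-1.45) and HYOU1 (-0.86) were called lower and no gene of the 9 higher, against 2.24% and 1.00% of all genes.

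Knockout and NTC were compared to ask what knockout of p300 did to the same genes. With all 8 libraries ERN1, MZB1 and SDF2L1 fell and 0 of the 37 rose, against 6.23% of all 17350 genes tested called higher and 10.7% called lower. An unadjusted p under 0.05 was reached by 8 of the 37. The shares of all genes are at the adjusted p and are no background for that count. DESeq2 called 1 higher and 5 lower, against 1749 and 2213 of all 17350 genes. With quality weights, limma-voom called 3 and 7, against 3218 and 3653 of all 17350 genes. Without p300 KO 1, 5 rose (13.5%) and 7 fell (18.9%), against 19.1% and 21.8% of 17706 genes tested, so neither share exceeded the background. The median was -0.01 over the 37 genes and 0.00 over all genes. TENT5C, DNAJC3, HSPA5, SEC24D and PDIA3 rose, and ERN1, SPCS1, MZB1, SEC61G, SDF2L1, SSR4 and FKBP11 fell. The mitochondrial share ran from 8.91% to 10.3% in NTC and from 10.2% to 11.4% in the other 3 KO libraries. With it as a covariate, 8 were called higher and 8 lower with all libraries (19.1% and 21.1% of all genes), and 2 higher (TENT5C and HYOU1) and 4 lower (SPCS1, ERN1, MZB1 and SEC61G) without p300 KO 1 (9.39% and 12.7% of all genes).

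In replicate order 1 to 4, ERN1 was at 183, 172, 166 and 166 CPM in the NTC libraries and at 119, 136, 136 and 138 CPM in the KO libraries. All KO libraries lay below all NTC libraries, and p300 KO 1 was the lowest. The log2 fold change was -0.37 ± 0.07 (adjusted p = 0.00876) with all libraries and -0.33 ± 0.05 (adjusted p = 7.25e-07) without p300 KO 1. It was called whichever 1 of the 8 libraries was left out, with an adjusted p of up to 0.0377. With the covariate and without p300 KO 1 it was -0.26 (adjusted p = 0.0101). ATF6 was at 102, 96.8, 99.9 and 96.2 CPM in NTC and at 102, 97.2, 97.1 and 112 CPM in KO. The groups overlapped, and the change was 0.05 ± 0.05 without p300 KO 1 (adjusted p = 0.486).

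HSPA5 was at 649, 624, 609 and 639 CPM in NTC and at 435, 698, 675 and 703 CPM in KO. The 3 other KO libraries lay above NTC, and p300 KO 1 below it. The change was -0.01 ± 0.14 (adjusted p = 0.984) with all libraries and 0.13 ± 0.05 (adjusted p = 0.0221) without p300 KO 1. DNAJC3, an HSPA5 co-chaperone, was at 40.2, 43.1, 43.1 and 43.1 CPM in NTC and at 56.6, 47.9, 44.3 and 50.8 CPM in KO, with p300 KO 1 the highest of the 8 libraries. Its change was 0.23 ± 0.08 (adjusted p = 0.0827) with all libraries and 0.17 ± 0.06 (adjusted p = 0.0200) without p300 KO 1. SDF2L1 was at 136, 127, 131 and 140 CPM in NTC and at 105, 115, 121 and 112 CPM in KO, and the groups did not overlap. Its change was -0.24 ± 0.07 (adjusted p = 0.0438) with all libraries and -0.20 ± 0.05 (adjusted p = 0.00116) without p300 KO 1; among the 8 fits that leave out 1 library it was called only without KO 1 or KO 3, with an adjusted p of up to 0.129. The other 8 chaperones lay between -0.13 (CRELD2) and 0.07 (HYOU1) without p300 KO 1 and did not pass.

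MZB1 (chr5:139387480-139390081) was at 619, 625, 650 and 622 CPM in NTC and at 512, 542, 543 and 493 CPM in KO. The groups did not overlap, and p300 KO 1 lay within the range of the other 3. The change was -0.27 ± 0.07 (adjusted p = 0.0238) with all libraries and -0.26 ± 0.05 (adjusted p = 3.31e-05) without p300 KO 1. Leaving out 1 library at a time, it was called only without KO 1, KO 2 or KO 3, with an adjusted p of up to 0.0819. FKBP11 was at 101, 103, 102 and 104 CPM in NTC and at 96.1, 93.6, 98.5 and 87.9 CPM in KO, a change of -0.14 ± 0.05 (adjusted p = 0.0289) without p300 KO 1. PDIA3 was at 161, 162, 150 and 158 CPM in NTC and at 122, 169, 162 and 186 CPM in KO, with a change of 0.13 ± 0.05 (adjusted p = 0.0443) without p300 KO 1. Its KO libraries spread on both sides of NTC when p300 KO 1 is counted. PDIA4, PDIA6 and P4HB, which rose with the degrader without degrader 2, were at 0.02, 0.05 and 0.09 and did not pass.

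SPCS1 (chr3:52704955-52711146) was at 336, 343, 337 and 337 CPM in NTC and at 165, 265, 296 and 275 CPM in KO. NTC 2 stood above 3 nearly equal NTC libraries, and p300 KO 1 far below the other KO libraries. The change was -0.43 ± 0.16 (adjusted p = 0.0844) with all libraries and -0.28 ± 0.05 (adjusted p = 7.98e-06) without p300 KO 1. SEC61G, the small gamma subunit of the channel, was at 125, 119, 115 and 110 CPM in NTC and at 66.9, 94.0, 97.9 and 104 CPM in KO, a change of -0.25 ± 0.05 (adjusted p = 1.88e-04) without p300 KO 1. SSR4, a TRAP subunit, was at 633, 653, 672 and 654 CPM in NTC and at 613, 587, 615 and 564 CPM in KO, a change of -0.15 ± 0.05 (adjusted p = 0.00988) without p300 KO 1. For these genes all KO libraries lay below all NTC libraries. SEC24D was at 46.0, 44.2, 44.7 and 41.5 CPM in NTC and at 57.3, 50.3, 44.5 and 54.0 CPM in KO, a change of 0.17 ± 0.06 (adjusted p = 0.0242) without p300 KO 1, with KO 3 inside the NTC range. TENT5C (chr1:117605934-117628372) was at 173, 166, 143 and 164 CPM in NTC and at 150, 190, 174 and 199 CPM in KO, a change of 0.14 ± 0.10 (adjusted p = 0.339) with all libraries and 0.22 ± 0.06 (adjusted p = 0.00145) without p300 KO 1. The 5 genes of ER-associated degradation lay between -0.09 and 0.10 without p300 KO 1, and 0 passed with edgeR (0 at an unadjusted p under 0.05, lowest adjusted p 0.135).

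The knockout effect (KO minus NTC) and the degrader effect (degrader minus DMSO) were set against each other by subtracting the second from the first, in 1 fit over the 4 groups. With all 16 libraries, ATF6 differed, at -0.69 ± 0.19 (adjusted p = 0.0394), and no other gene of the 37 did. Of all 18068 genes, 2.82% were called higher and 3.76% lower. An unadjusted p under 0.05 was reached by 4 of the 37, for which those adjusted shares are no background. The ATF6 difference was called in 5 of the 16 fits that leave out 1 library (DMSO 2, degrader 2, 3 or 4, or KO 4), with an adjusted p of up to 0.0804. Without degrader 2 and p300 KO 1, 3 of the 37 were higher (8.11%) and 13 lower (35.1%), against 15.3% and 16.7% of 18432 genes. A lower value means a smaller rise, or a larger fall, in the knockout than with the degrader. The 13 were PDIA4 (-0.66 ± 0.11, adjusted p = 5.02e-05), SDF2L1 (-0.70), MANF (-0.97), SPCS2 (-0.44), SEC11C (-0.46), DNAJB11 (-0.40), SPCS1 (-0.41), CRELD2 (-0.40), ATF6 (-0.51), PDIA6 (-0.89), CALR (-0.36), HSP90B1 (-0.30) and SEC61A1 (-0.29). HERPUD1 (0.34 ± 0.09, adjusted p = 0.00689), TENT5C (0.38) and ERN1 (0.32 ± 0.12, adjusted p = 0.0361) were the 3 higher ones, so the fall of ERN1 was smaller in the knockout than with the degrader in this fit. With all 16 libraries the ERN1 difference was 0.27 ± 0.15 (adjusted p = 0.334). HSPA5 did not pass, at -0.22 ± 0.12 (adjusted p = 0.155).

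This difference also moved with the libraries left out and with the mitochondrial covariate, and the part of the mitochondrial share was not tested. Leaving out DMSO 3 as well gave 3 higher and 21 lower (14.7% and 19.3% of all genes). With the covariate and all 16 libraries the split turned, with 15 higher and 3 lower (13.8% and 13.6% of all genes). Across the 37 genes, the fitted changes without the 2 libraries had the same sign in both comparisons for 22, with r = 0.28 and rho = 0.22 (n = 37 genes, which share libraries within each comparison).

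The wider pathway was described with 94 other genes in 6 lists. With all libraries, 0 rose and 1 fell with the degrader, against 1.64% and 3.12% of all genes. An unadjusted p under 0.05 was reached by 6 of the 94, against 3289 of all 15872 genes. The gene that fell was SEC16A, the scaffold of ER exit sites, at -0.56 ± 0.13 (adjusted p = 0.0461). Without degrader 2, 35 rose (37.2%) and 3 fell (3.19%), against 18.2% and 20.3% of all genes, with a median of 0.14 against -0.04 over all genes. XBP1 was at 987, 1139, 864 and 1078 CPM in DMSO and at 1713, 541, 1719 and 1542 CPM with the degrader, and rose by 0.70 ± 0.11 (adjusted p = 2.12e-04) without degrader 2. Gene counts do not separate its spliced from its unspliced form. EIF2AK3, which encodes PERK, rose by 0.37 and NFYC, a subunit of the factor that binds CCAAT, by 0.26, among 5 of 14 sensors, proteases and transcription factors that rose. Of 15 oxidative folding genes 8 rose and 1 fell, led by QSOX1, a sulfhydryl oxidase (1.06 ± 0.11, adjusted p = 8.42e-06), TMX1 (0.77) and SIL1 (0.55). Of 13 entry genes 5 rose, among them TRAM1 (0.60), SRP9 (0.71) and SRPRB (0.54). UBE2J1 (0.57), ERLEC1 (0.66) and HM13 (0.35) were among 6 of 17 degradation genes that rose while HERPUD2 fell, and STT3A (0.45), DAD1 (0.51) and ALG5 (0.37) among 6 of 15 glycosylation genes. Of 20 exit and retrieval genes 5 rose, SEC23B (0.46) and ARCN1 (0.30) among them, and SEC16A fell (-0.67). With the covariate and all libraries, 17 of the 94 were called higher (18.1%) and 28 lower (29.8%), against 18.4% and 18.1% of all genes. With the covariate and without degrader 2, 0 were called higher and 1 lower (TMED2), against 1.00% and 2.24% of all genes. Of the 94, 24 had an unadjusted p under 0.05 in that fit, for which those adjusted shares are no background.

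In the knockout with all libraries, 3 of the 94 rose and 2 fell, against 6.23% and 10.7% of all genes. ATF6B, the paralogue of ATF6, rose by 0.44 ± 0.09 (adjusted p = 0.00982), DDIT3 (CHOP), a stress transcription factor, by 0.66 ± 0.15 (adjusted p = 0.0165) and FAF2, which recruits the VCP ATPase, by 0.70 ± 0.13 (adjusted p = 0.00684). TXNDC11 (-0.36) and UBE2J1 (-0.26), the ubiquitin-conjugating enzyme, fell. Without p300 KO 1, 23 rose (24.5%) and 10 fell (10.6%), against 19.1% and 21.8% of all genes, with a median of 0.05 against 0.00 over all genes. With the covariate as well, 15 were called higher and 4 lower, against 9.39% and 12.7% of all genes. Without p300 KO 1 and with no covariate, 9 of 17 degradation genes rose, FAF2 (0.55) and OS9 (0.35) among them, and UBE2J1 and HERPUD2 fell. Of 14 sensors, proteases and transcription factors ATF6B and DDIT3 rose and EIF2AK3 (-0.26), CREB3L2 and TRIB3 fell, and XBP1 was at 0.08 ± 0.05 and did not pass (adjusted p = 0.210). Of 15 glycosylation genes GANAB (0.28), ALG5 (0.26) and UGGT1 (0.18) rose and DAD1 fell. Of 13 entry genes 4 rose, among them SEC62 (0.33), SRP72 (0.21) and SRP9 (0.19), and of 20 exit and retrieval genes LMAN1 (0.22), TMED10 (0.14) and SEC24B (0.21) rose, with 0 lower in either list. Of 15 oxidative folding genes TMX1 (0.34) and TXNDC12 (0.29) rose and 4 fell, TXNDC11 (-0.31), ERP29, TXNDC5 and FKBP2. UBE2J1 thus rose with the degrader without degrader 2 and fell in the knockout, and the difference was called in both fits on all groups.

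Gene lengths in the count tables, such as 1190 bases for SEC61B and 11349 for SSR1, need not be those of the transcripts expressed. Ranks by level per kilobase therefore depend in part on the annotation. Levels per kilobase of gene length, scaled over all 16 libraries, ranked the 37 genes as follows. CALR, a calcium-binding lectin chaperone, was highest in DMSO at 527 ± 49.8 CPM per kb (SD, n = 4), then MZB1 at 429 ± 28.0, and in NTC the same 2 led at 400.1 ± 18.8 and 256 ± 5.18. SEC61B (310.1 ± 41.6) and HSP90B1 (305 ± 14.3) followed in DMSO and did not differ beyond their spread. ATF6 and SEC24D were the lowest in DMSO at 6.75 ± 1.00 and 4.81 ± 0.29. The 2 controls, from separate experiments and compared without a test, gave ERN1 at 8.69 ± 0.92 CPM per kb in DMSO and 14.6 ± 0.69 in NTC, and HERPUD1 at 55.7 ± 1.00 and 85.3 ± 4.14.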

How the data were processed

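The authors deposited integer counts per gene, 1 table per library, for 57500 genes. Tools named in the submitters' processing notes are STAR 2.5.2b, Trimmomatic 0.36, DESeq2 1.16.1, Subread 1.5.2 and its featureCounts, and the genome build is GRCh38. Strand, multi-mapping reads and the annotation release are not stated, so values of genes that overlap others are uncertain. The deposited tables also give gene lengths in bases, used for levels per kilobase. Positions of the 37 genes were the same as in GENCODE 29.

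Counts were fitted with edgeR 4.0.16 in R 4.3.3 (filterByExpr, TMM, quasi-likelihood test on group, 8 libraries per comparison, all 16 for the difference) with calls at an adjusted p (Benjamini-Hochberg, all genes) under 0.05. The SE is the absolute log2 fold change divided by the square root of F. DESeq2 1.42.0, limma 3.58.1, other scalings, no filter, a replicate block, leaving out libraries and a mitochondrial covariate were alternatives. The fits were also run on simulated data, for which neither the setting nor the outcome is given here. That run therefore cannot show how the fits behave with the libraries that stand apart, and no conclusion is drawn from it. Same-numbered replicates had deviations correlated at r = -0.44 to 0.13. These values are moved by the libraries that stand apart and do not settle whether the numbers pair the samples. Library values are given for HSPA5, ERN1, ATF6 and up to 12 called genes per comparison by smallest p. For other lists, up to 3 called genes per list and comparison are named, and XBP1 and EP300 always. HSP90B1, TMED2 and other genes named beyond these were chosen after their values were seen, or stand for counts of 5 or fewer. The 37 genes and all lists were chosen with earlier results of these data known. Promoter sequences are from RefSeq (GRCh38.p14); SPCS1, PDIA3, SEC24D and DERL3 had no window. Counting intervals and floors cover counting error only. The labels do not separate the libraries by batch, which does not show that the degrader and knockout experiments were run together.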

Additional observations from a re-analysis of the deposited data

Results flagged for a closer look

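In groups of 4, a library is listed here where its gap to the nearest of the others exceeds Dixon's critical value at 95%, which chance meets in about 1 in 20 groups. Over the 37 genes and 4 groups (148 tests, which share libraries) 32 met it. Degrader 2 was the low library for 16 genes and the high one for 1. For p300 KO 1 these were 11 and 1, and 3 fell to other libraries. How many of all genes met it was not counted, so these counts cannot be read as particular to the 37 genes. Over all genes tested, degrader 2 was the lowest of its group for 43.4% and the highest for 45.7%. The same shares for p300 KO 1 were 40.2% and 43.1%.

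Degrader 2 was apart in its mitochondrial share (64.9%) and in the share of its other counts in the 37 genes (1.14%), and p300 KO 1 likewise (47.7% and 1.15%). Among the genes with library values, degrader 2 was apart from its group for ATF6 (104.4 CPM, high), HSPA5 (230 CPM), SDF2L1 (103 CPM), MANF (48.7 CPM), PDIA4 (202 CPM), HERPUD1 (90.8 CPM) and SEC11C (235 CPM), the last 6 low. p300 KO 1 was apart for ERN1 (119 CPM) and HSPA5 (435 CPM), both low. In NTC, replicate 1 was low for DNAJC3 (40.2 CPM) and replicate 2 high for SPCS1 (343 CPM), among otherwise nearly equal libraries.

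The effect on ATF6 differed between the comparisons, at -0.69 (log2, KO effect less degrader effect, adjusted p = 0.0394 with edgeR on all 16 libraries).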

How the results depend on the processing

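Of the 37 genes, degrader against DMSO called 1 with all libraries. It called 0 with a replicate block, with total count scaling and with no filter, 6 with DESeq2 and with a fit on all 16 libraries, and 24 with limma-voom quality weights. Leaving out 1 library gave 0 to 20. Without degrader 2 it called 21 with DESeq2, with total count scaling and with RLE, 17 with mitochondrial genes removed and total count scaling, and 3 with the mitochondrial covariate. The covariate with all libraries gave 26, and leaving out DMSO 3 and degrader 2 gave 24. Genes called, 755 with all libraries, were 24, 164, 394, 1796, 2294 and 7616 with the block, total count, no filter, DESeq2, the 16-library fit and limma-voom, and 197 to 6278 leaving out 1 library. Without degrader 2 they were 5983, 6683, 6332, 6253 and 528 with DESeq2, total count, RLE, mitochondrial genes removed and the covariate. The covariate alone gave 5807 and the pair left out 6510. p300 KO against NTC called 3 of the 37 with all libraries, 0 with the replicate block and total count, 1 with no filter and the 16-library fit, 2 with RLE, 6 with DESeq2, 10 with limma-voom and 1 to 12 leaving out 1 library. Without p300 KO 1 it called 12 under DESeq2 and each scaling, and 6 with the covariate, which alone gave 16. Genes called there, 2944 with all libraries, were 1304, 1265, 6871 and 1484 with the block, total count, limma-voom and the 16-library fit, 1542 to 7246 leaving out 1 library, and 6319, 7124, 7278 and 7248 without p300 KO 1 under DESeq2, total count, RLE and mitochondrial genes removed. The covariate gave 6983. The difference called 1 of the 37, 0 with the replicate block and no filter, 19 with limma-voom, 0 to 8 leaving out 1 library, 16 without both libraries, 18 with the covariate and 24 without DMSO 3 as well. Its genes called, 1189, were 306, 585 and 6835 with the block, no filter and limma-voom, 766 to 4611 leaving out 1 library, 5901 without both, 4948 with the covariate and 6224 without DMSO 3 as well. The causes were not tested.

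Directions turned as follows, counting genes called under either setting. In degrader against DMSO the covariate gave HSPA5 -0.57, CALR -0.38, CRELD2 -0.21 and SEC11C -0.42, and with degrader 2 left out too it gave HYOU1 -0.86 and PDIA6 -1.45. DNAJB9 was 0.31 without degrader 2 under total count scaling. In the knockout HSPA5 ran from -0.063 to 0.13 leaving out 1 library, the highest without p300 KO 1, and was then 0.14, 0.12, 0.14 and 0.14 with DESeq2, total count, RLE and mitochondrial genes removed. The covariate gave HSPA5 0.19, PPP1R15A -0.15, HYOU1 0.12, PDIA6 0.15 and P4HB 0.14, and HYOU1 0.22 without p300 KO 1. Whether same-numbered samples were paired was not settled. Depth limits degrader 2 most, with 4.42 M counts outside the mitochondrial genome.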
